A study of Mus musculus with 2 samples.

Results

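B cells of the pancreatic islet were taken from 2 droplet single-cell RNA libraries of mouse islet cells, 1 labelled saline and 1 labelled CDS. The animals are called DIO mice in the labels, and all of them carried that state, the saline group included. One group received 10 mg/kg of CDS and the other saline, for 2 weeks, before islets were isolated. The sources used here do not give strain, sex, age, the number of animals behind each library or what CDS is. A label gives the cell type of both libraries as islet b cell, but it stands for the whole islet suspension, so the lymphocytes described here were picked by their own RNA. A kept barcode had at least 500 detected genes, at least 1000 UMIs (unique molecular identifiers, which count captured RNA molecules) and no more than 20% mitochondrial UMIs. It was taken as a B cell when Cd79a, Cd79b, Ms4a1, Bank1, Ighd and Pax5 together had at least 4 UMIs, when no Cd3d, Cd3e or Cd3g UMI was present, when Mzb1 and Jchain together had fewer than 5 UMIs, and when Ins1 and Ins2 made up less than 25% of UMIs.

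These conditions held for 1161 of 18006 kept barcodes. The saline library gave 1127 B cells of 11591 kept barcodes, a share of 9.72% (95% exact Clopper-Pearson interval 9.19 to 10.3%). The CDS library gave 34 of 6415, or 0.530% (0.367 to 0.740%). With a stricter barcode filter of 1000 genes, 2000 UMIs and 10% mitochondrial UMIs, the shares were 4.36% in saline and 0.513% in CDS. With 1 library per group, treatment and library cannot be told apart, no p-value is possible, and every interval here covers counting error only. Saline B cells are therefore described first and the 34 CDS cells beside them. The libraries shared 25 barcodes, none of them a B cell in both.

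B cells recognise antigen through a membrane immunoglobulin made of heavy and light chains, which signals through the Cd79a and Cd79b chains. Naive follicular B cells carry IgM and IgD together, recirculate through lymphoid organs by way of Ccr7 and Cxcr5, and leave them by way of S1pr1. Once activated they can switch to IgG, IgA or IgE, enter germinal centres or become antibody-secreting plasma cells. They also present peptides to T cells on MHC class II. In obese animals B cells are known to collect in inflamed metabolic tissues.

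The values that chose the cells are a description only. The summed marker UMIs per saline B cell had a lowest value of 4, a median of 9 and a highest of 103. At the edge of the rule, 90 cells had a sum of 4 and 51 otherwise eligible cells had a sum of 3. Those just inside had 874 CPM of Ighm and 1776 CPM of Cd74, and those just outside had 824 and 1280 CPM. CPM scales the UMIs of a gene to the UMI total of its class. Saline B cells were shallow, with a median of 1826 UMIs and 1055 genes, against a median of 10070 UMIs over all kept saline barcodes. Their median mitochondrial share was 3.05%, and insulin transcripts made up a median of 4.88% of their UMIs. CDS B cells had medians of 2720.5 UMIs, 1397 genes, 1.87% mitochondrial and 3.36% insulin UMIs. In the saline library 67 B cells had 8000 UMIs or more and held 28.7% of all B cell UMIs. In the CDS library 4 such cells held 88264 of 176414 UMIs. The deep cells carried endocrine RNA: the summed level of the beta cell list was 123500 CPM in the deep saline cells and 50189 CPM in the other saline B cells. Scrublet, a doublet caller, marked 68 saline B cells (6.03%) and 2 CDS B cells, which were kept.

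B lineage genes outside the rule were present and higher than in T cells. Of 20 such genes, 19 reached 20 CPM in saline B cells, where 22.0% of all 32207 genes did. All 19 were at least 2-fold higher than in the 792 T cells of the same library, with an interval above 1. Over all 7782 genes compared, 5.86% were that much higher in B cells and 7.74% that much lower. Since the cells were chosen by their RNA, these contrasts describe the classes and test nothing. Ebf1, the factor that commits progenitors to the B lineage, stood at 1508 CPM in B cells and 7.47 CPM in T cells. Ly6d was at 293 CPM against 1 UMI in T cells, and Fcmr, the IgM Fc receptor, at 184 against 1.02 CPM. Vpreb3 had 178 UMIs in B cells and none in T cells, which places B cells at least 54.9-fold higher. Fcer2a, the low-affinity IgE receptor CD23, was the member under 20 CPM, with 25 UMIs, of which 2 cells held at least 50%. The 34 CDS B cells had Ebf1 at 1411 CPM and Ly6d at 391 CPM.

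Most markers of other leukocytes stayed under 20 CPM, while Il7r, Cd2, C1qa, C1qb, Flt3 and acinar RNA were present. All 12 T cell genes were lower than in T cells, among them Trac, the T cell receptor alpha constant gene, at 2.83 against 256 CPM. Il7r and Cd2 of that list passed 20 CPM in B cells, and the list summed to 163 CPM in B cells and 3433 CPM in T cells. Lyz2, a lysozyme of myeloid cells, was at 15.1 CPM in B cells and 4731 CPM in the 135 macrophages. C1qa and C1qb of the macrophage list passed 20 CPM in B cells, and that list summed to 77.9 CPM in B cells and 12521 CPM in macrophages. Of 6 dendritic cell genes, Flt3, a cytokine receptor also known from lymphoid progenitors, stood at 65.4 CPM and was called higher than in T cells, and the list summed to 67.9 CPM in B cells, 16.0 CPM in T cells and 22.5 CPM in macrophages. The dendritic cell genes Xcr1, Cd209a and Clec9a and all 4 neutrophil and mast cell genes (S100a8, S100a9, Cpa3, Mcpt4) had no UMI in saline B cells. All 7 acinar enzymes were higher in B than in T cells, at a summed 1183 against 441 CPM. The part of free or doublet RNA in these values was not tested.

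**Figure D1:**
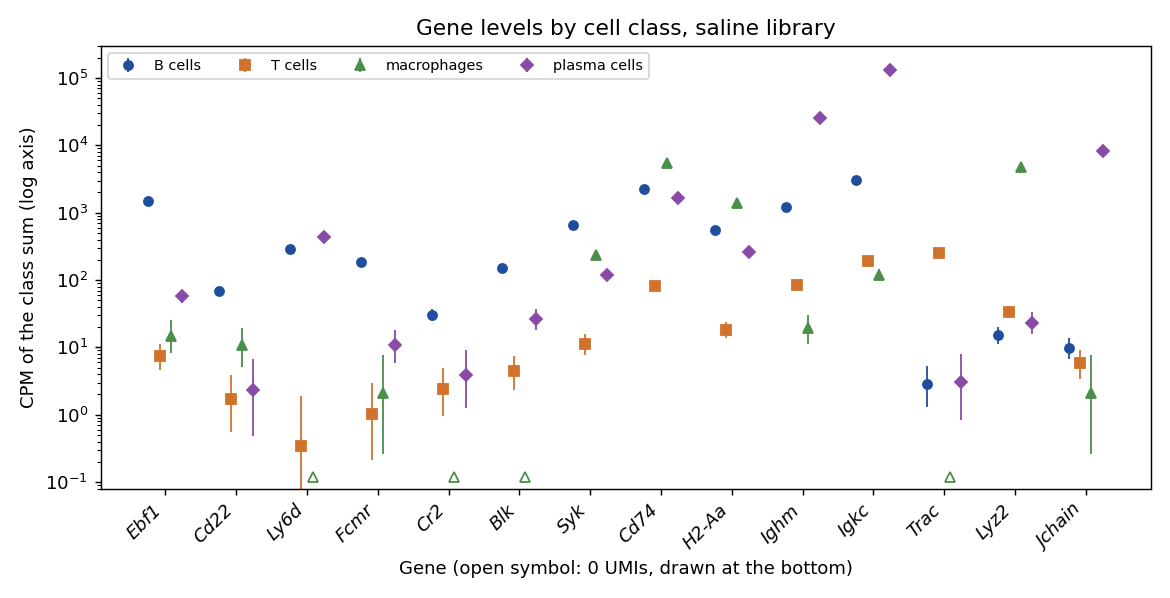
Levels of 14 genes in B cells, T cells, macrophages and plasma cells of the saline library, in CPM on a log axis with exact 95% Poisson intervals. B cells carry the lineage genes from Ebf1 to Blk, which T cells and macrophages hold at far lower levels or lack. Plasma cells hold Ly6d at 437 CPM, above the 293 CPM in B cells, and Cd74 and H2-Aa are higher still in macrophages than in B cells.

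The signal chain behind the B cell receptor was detected throughout. All 15 genes of that list reached 20 CPM, and 9 were at least 2-fold higher than in T cells, with a list median of 2.90 on the log2 scale against -0.01 over all genes compared. The kinases led: Lyn stood at 693 CPM against 37.3 in T cells, Syk at 656 against 11.2, Btk at 212 against 1.70 and Blk at 150 against 4.41. The adaptor Blnk was at 424 against 2.38 CPM. Bcl10 and Malt1, which join antigen receptors to NF-kappaB in both lymphocytes, stood at 66.6 and 239 CPM in B cells, and at 64.1 and 286 CPM in T cells. Of 8 inhibitory receptors and phosphatases, with a median of 3.34 on that scale, 6 were at least 2-fold higher in B cells, Cd22 at 69.5 against 1.70 CPM and Fcgr2b at 78.3 against 4.41 CPM among them. Cd5 was lower, with 6 UMIs. Macrophages also held RNA of both lists. The inhibitory list summed to 1042 CPM in B cells and in macrophages, and the signal chain list to 3550 and 2338 CPM.

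Antigen presentation genes were higher in B cells than in T cells for 10 of 10 list members (median log2 ratio 4.84), at a summed 4291 CPM against 173 CPM. Macrophages had 9714 CPM. Cd74, the invariant chain, had 2257 CPM and was found in 87.3% of B cells thinned to 1000 UMIs each, against 3.28% of T cells thinned the same way. H2-Ob and H2-Oa form the modulator of peptide loading known from B cells. They stood at 148 and 32.4 CPM in B cells, above the 1.07 and 4.28 CPM in macrophages. H2-DMb2 was likewise higher in B cells, at 72.0 against 2.14 CPM. Of the genes for contact with T cells, Cd86 was at 247 CPM and Cd83 at 125 CPM, while Cd40, Cd80 and Icosl stayed under 20 CPM.

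Transcription factors of the list all passed 20 CPM, 10 of 19 higher than in T cells and 1 lower (median log2 ratio 1.15). Mef2c stood at 709 against 5.09 CPM and Bcl11a at 155 against 5.77 CPM. Bach2, which restrains plasma cell differentiation, was at 953 CPM and within 2-fold of the 798 CPM in T cells. Ikzf1 was lower, at 348 against 731 CPM. Receptors for survival factors included Tnfrsf13c, the BAFF receptor, at 61.0 CPM against 2 UMIs in T cells. The survival list as a whole summed to 738 CPM in B cells and 1062 CPM in T cells. Of its 7 members compared, 2 were called higher in B cells and 3 lower. Tnfrsf17, the BCMA receptor of plasma cells, had 1 UMI.

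Markers of B cell subsets passed 20 CPM most often in the follicular list. Of 5 follicular genes 4 passed 20 CPM, with Klf2 at 135, Cxcr5 at 109 and Ccr7 at 100 CPM. T cells held this list at a similar level, with 659 CPM summed against 774 CPM in B cells. Of its 4 members compared with T cells 1 was called higher in B cells, against 3 of 5 for the marginal zone list. Of 7 marginal zone genes 4 passed, Cr2 (the complement receptor CD21) at 30.8 CPM and Notch2 at 88.6 CPM among them, and Cd9 stood at 10.7 CPM. Of 8 B-1 genes 1 passed, Ctla4, which T cells had at 272 CPM. Of 9 germinal centre genes 1 passed, Bcl6 with 191 UMIs. S1pr2 and Gcsam of that list had no UMI. Rag1, Rag2 and Dntt of developing B cells had no UMI, which allows up to 0.943 CPM each by the limit of 3 counts. Of 9 proliferation genes 3 passed 20 CPM (Top2a, Stmn1 and Pcna), and Mki67 stood at 15.4 CPM against 36.7 in T cells. These values rested on the 67 deep cells, where the list summed to 339 CPM, against 69.6 CPM in the other saline B cells. Without the deep cells Mki67 had 2 UMIs, Top2a was at 5.73 CPM and Stmn1 at 17.6 CPM, and Pcna stood at 37.5 CPM.

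The series title names an alpha2A-adrenergic receptor antagonist that acts in the periphery, and no label says whether CDS is that compound. Adra2a, the alpha2A receptor, had 20 UMIs in saline B cells, or 6.29 CPM, near the 6.11 CPM of T cells and below the 32.0 CPM of the 4747 cells with 25% or more insulin UMIs. Adra1b, Adra1d, Adra2b, Adra2c and Adrb3 had no UMI.

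Ighm and Ighd were detected together in most cells. Ighd is 1 of the 6 markers that chose the B cells, and T cells were allowed at most 1 UMI of those markers, so every Ighd value here and its T cell background partly follow from the rule and are a description. Ighm and Ighd UMIs occurred together in 762 of 1127 saline B cells, or 67.6% (64.8 to 70.3%). Ighm alone was seen in 268 cells, Ighd alone in 57 and neither in 40. In T cells both occurred in 2 of 792, but Ighm without Ighd in 201 of 792 (25.4%). The share of cells with Ighm and no Ighd therefore does not set B cells apart from the background. The amount of Ighm did differ. Ighm and Ighd had 5613 UMIs together in B cells, 1797 of them Ighd, and 258 in T cells, 5 of them Ighd. Switched cells, defined by at least 3 UMIs of Ighg1, Ighg2b, Ighg2c, Ighg3, Igha and Ighe together and more of them than of Ighm and Ighd, numbered 6, or 0.532% (0.196 to 1.16%). At least 1 switched UMI was present in 12.5% of B cells and 12.9% of T cells, at median depths of 1826 and 2483.5 UMIs, so a single switched UMI is read as background. The definition of switched cells was also met by 21 of 4747 beta cells (0.442%, 0.274 to 0.675%), at a median of 16334 UMIs, and by 0 of 792 T cells. The switched share of B cells therefore does not stand apart from that of beta cells. Of 92 plasma cells in the same library, 48 were switched. In CDS B cells Ighm and Ighd occurred together in 27 of 34, and 0 of 34 were switched (exact interval up to 10.3%).

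Light chains were kappa for most of the cells with at least 10 light chain UMIs, yet many B cells held lambda RNA beside kappa. The light chain constant genes lie at chr6:70726435-70726966 (Igkc) and on chromosome 16 (Iglc1, Iglc2 and Iglc3). Iglc2 and Iglc3 are near-identical copies that differ at 11 of 314 coding bases, so the split between them is uncertain, while Iglc1 is set apart from both. The last 120 coding bases before the stop, in GENCODE M21 on GRCm38, show this, with capitals at positions where the 3 genes are not all alike:
Iglc1, chr16:19061755-19061874, minus strand: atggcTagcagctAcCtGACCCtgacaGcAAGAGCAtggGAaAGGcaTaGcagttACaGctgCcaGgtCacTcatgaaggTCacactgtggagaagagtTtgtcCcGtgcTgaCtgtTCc
Iglc2, chr16:19198539-19198658, minus strand: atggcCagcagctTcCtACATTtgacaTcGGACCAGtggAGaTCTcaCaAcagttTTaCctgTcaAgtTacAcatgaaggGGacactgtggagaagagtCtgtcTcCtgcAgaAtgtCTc
Iglc3, chr16:19065368-19065487, minus strand: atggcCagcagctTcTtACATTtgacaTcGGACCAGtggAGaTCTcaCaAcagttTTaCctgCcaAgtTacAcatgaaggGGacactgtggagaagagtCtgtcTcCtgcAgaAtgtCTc
Over these bases Iglc1 differs from Iglc2 at 38 positions, and Iglc2 from Iglc3 at 2.

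At least 10 light chain UMIs were present in 469 of 1127 saline B cells, and the other 658 were not classed. Of these, 283 (60.3%, 55.8 to 64.8%) had 90% or more Igkc and are called kappa. Another 5 (1.07%, 0.347 to 2.47%) had 10% or less and are called lambda. The remaining 181 (38.6%, 34.2 to 43.2%) lay between and are called mixed. All but 5 of the mixed cells had more kappa than lambda or as much: 120 of the 469 had a kappa share from 75 to under 90%, 56 from 50 to under 75% and 5 from 25 to under 50%. No cell lay from 10 to under 25%. Both Igkc and an Iglc gene were detected in 559 of 1127 B cells (49.6%), 29 of 792 T cells (3.66%) and 672 of 4747 beta cells (14.2%). The beta cells were deeper, at a median of 16334 UMIs. A T cell counts here only with background RNA of both genes, while a kappa B cell needs only that of an Iglc gene. The T cell share is therefore not a matched background. Lambda UMIs numbered 49 in the T cells and 1697 in the B cells. The lambda cells and the mixed cells held the lambda genes in different proportions. In the 5 lambda cells 302 UMIs were Iglc1, 46 Iglc2 and 3 Iglc3. In the 181 mixed cells 125 were Iglc1, 368 Iglc2 and 244 Iglc3, so Iglc2 and Iglc3 made up 83.0% of lambda UMIs there and 14.0% in lambda cells. A lambda variable gene was detected in 3 of the 5 lambda cells and in 7 of the 181 mixed cells. At least 50% of the Iglc1 UMIs in saline B cells came from 3 cells, while for Iglc2 it took 89 cells and for Iglc3 86. Plasma cells differed in the split, with 59.6% Iglc1, 38.5% Iglc2 and 1.85% Iglc3 of 22577 lambda UMIs, against 31.3, 42.2 and 26.5% of 1697 in B cells. Cells of 8000 UMIs or more numbered 14 in the mixed class and 25 in the kappa class, and the part of doublets was not tested. Variable genes were thinly covered, with 260 Ighv UMIs spread over 72 genes and the commonest, Ighv9-3, at 5.38% of them.

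**Figure D2:**
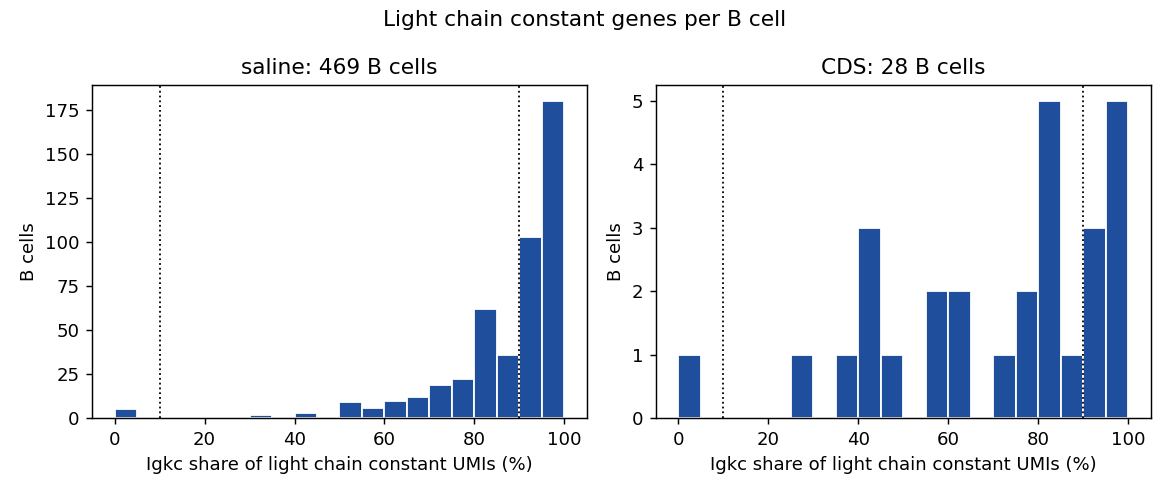
Number of B cells by the Igkc share of their light chain constant UMIs, for 469 saline and 28 CDS B cells with at least 10 such UMIs. Dotted lines at 10 and 90% bound the mixed class, and the saline cells form a peak at high kappa shares with a tail toward lower ones and 5 cells at the lambda end.

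CDS B cells had a larger lambda part. Of 28 cells with at least 10 light chain UMIs, 8 were kappa, 19 mixed and 1 lambda. Lambda UMIs were 30.7% (27.3 to 34.2%) of 710 light chain UMIs, against 14.7% (14.0 to 15.3%) of 11553 in saline. Iglc1, Iglc2 and Iglc3 were 2.28-fold, 2.07-fold and 2.27-fold higher than in saline. Without cells of 8000 UMIs or more the ratios were 3.07, 2.56 and 2.48. A single lambda cell held 36 of the 71 Iglc1 UMIs. Background light chain RNA was rarer in the CDS library, where both Igkc and an Iglc gene were found in 0.171% of beta cells, against 14.2% in saline, and in 0 of 17 T cells.

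Interferon response genes, which the rule did not use, were abundant in saline B cells. Type I interferon acts through a transcription factor complex that binds the interferon-stimulated response element in promoters. The list of 10 genes included Ifit1, Ifit3, Isg15, Irf7, Ifi27l2a, Oasl2, Usp18, Ifi203 and Ifi214, and all 10 passed 20 CPM. Ifi27l2a had 816 CPM, Ifi203 534, Ifit3 438, Irf7 246 and Ifi214 235 CPM. Usp18, which damps the interferon receptor, had 144 CPM, Isg15, a ubiquitin-like modifier, 130, Oasl2 107 and Ifit1, which binds viral RNA, 90.2 CPM. The 10 genes summed to 3031 CPM in B cells, 4024 in T cells, 2268 in plasma cells, 1419 in macrophages and 122 in beta cells of the same library. Against T cells none of the 10 was 2-fold higher and 3 were lower, among them Ifit1 at 0.343 and Isg15 at 0.296 times the T cell level.

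Cells differed among themselves. In cells thinned to 1000 UMIs, 681 of 1127 saline B cells (60.4%, 57.5 to 63.3%) had at least 3 UMIs of the list, 171 had none and 69 had 10 or more. The same limit was met by 69.4% of T cells, 20.7% of macrophages and 0.379% of beta cells. B cells past the limit had a median of 1730 UMIs and the others 2011 UMIs. The genes went together: Ifit1 was seen in 18.8% of the 382 B cells with an Ifit3 UMI and in 5.50% of the 745 without, Irf7 in 36.6 and 21.1%, Usp18 in 23.6 and 8.05%, and Ifi203 in 60.7 and 37.6%. Gapdh, a housekeeping gene added for comparison, was seen in 33.8 and 35.8%. Some B cell genes outside the list were also seen more often with Ifit3, Cd74 in 91.1 and 85.4%, Cd79a in 80.9 and 73.0% and Ighd in 54.2 and 46.8%. Bank1, in 62.3 and 62.1%, and Syk, in 52.6 and 54.6%, were not. The part of a general gain in B cell RNA in this pattern was not tested. Cells with Ifit3 also had Cd69, the early activation antigen that keeps S1pr1 off the surface, more often, in 32.2% (27.5 to 37.1%) against 18.8% (16.0 to 21.8%). Gapdh, Cd69 and these B cell genes were examined after their values were seen.

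The response element was searched as TTTCNNTTTC on both strands, where matches may overlap, in the 250 bases before the start of each RefSeq transcript on GRCm38.p6. It was found in 2.98% of 32851 promoters, and in 3.46% of the 27025 genes they belong to. Of 10 list genes 7 had a promoter in the table, and 5 of those 7 (Ifi203, Ifi214, Ifit1, Ifit3 and Isg15) held a match. Of 19 B lineage and marker genes with a promoter 2 did (Ebf1 and Fcrla), and of 7 MHC class II genes none did. Of the 10 genes lowest in CDS against saline B cells, named further below, 9 had a promoter and 4 of those held a match. A match is a description of letters and says nothing of binding here. The windows below stand for these genes and for genes named in the next comparison, with the match in capitals, 5′ to 3′ on the gene's strand:
Ifit1, chr19:34640765-34640833, plus strand: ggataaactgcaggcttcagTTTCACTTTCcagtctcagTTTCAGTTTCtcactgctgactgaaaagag
Ifit3, chr19:34583353-34583436, plus strand: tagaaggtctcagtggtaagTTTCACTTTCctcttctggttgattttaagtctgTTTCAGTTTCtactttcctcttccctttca
Isg15, chr4:156200855-156200916, minus strand: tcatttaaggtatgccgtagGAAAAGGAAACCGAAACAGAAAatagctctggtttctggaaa
Ifi214, chr1:173536007-173536056, minus strand: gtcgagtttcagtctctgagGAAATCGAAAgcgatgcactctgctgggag
Trim30d, chr7:104507861-104507910, minus strand: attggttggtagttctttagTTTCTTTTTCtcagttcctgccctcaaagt
Ifi208, chr1:173673587-173673636, plus strand: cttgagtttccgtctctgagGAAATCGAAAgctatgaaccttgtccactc
Ifit1 and Ifit3 hold 2 matches each, and the first lie at -104 and -156 relative to the start. Isg15 holds 3 overlapping matches on the opposite strand, the first at -78.

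**Figure D3:**
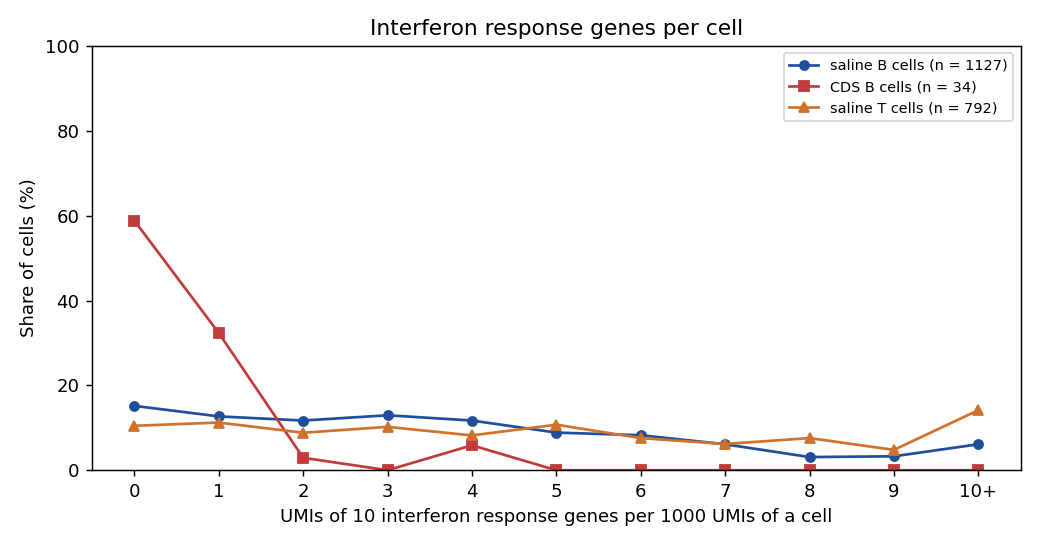
Share of cells by the number of UMIs of 10 interferon response genes per 1000 UMIs of a cell, for saline B cells, CDS B cells and saline T cells. Saline B and T cells spread from 0 to 10 or more, while 31 of 34 CDS B cells sit at 0 or 1.

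The comparison of CDS with saline B cells asked how the few B cells of the CDS library differ. Interferon response genes were lower in it. Over 1774 genes with a mean of at least 100 CPM, 126 (7.10%) were at least 2-fold lower in CDS with an interval below 1, and 48 (2.71%) were higher. The median log2 ratio of all genes was -0.10 after TMM scaling. Of the interferon list 6 members were in this comparison and all 6 were lower. Ifit3 had 1394 UMIs in saline B cells and none in CDS B cells, at least 27.3-fold lower. Isg15, below the level limit of this comparison, had 414 and 0 UMIs. Irf7 had 783 and 3 UMIs (ratio 0.065, 95% interval 0.013 to 0.191), and Ifi27l2a 2597 and 33 (0.216, 0.149 to 0.305). The 10 lowest genes were Ifit3, Ifit2, Ifitm3, Herc6, Ifi206, Zbp1, Irf7, Trim30d, A330040F15Rik and Ifi208, each at 3 UMIs or fewer in CDS but for A330040F15Rik with 8, and against 629 to 1726 UMIs in saline. Ifit2 and Ifitm3 are interferon-induced antiviral proteins, and Zbp1 senses nucleic acids in the cytosol.

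At least 3 UMIs of the list in 1000 were found in 2 of 34 CDS B cells (5.88%). Without the 4 CDS and 67 saline cells of 8000 UMIs or more, the summed list stood at 839 CPM in CDS and 3826 CPM in saline B cells, and Ifit3 was still at 0 UMIs in CDS against 1313. The lower level was not limited to B cells. The sum in CDS was 0.165 times that in saline for B cells (0.132 to 0.203), 0.173 times for T cells (0.140 to 0.212), 0.209 times for plasma cells, 0.481 times for beta cells and 0.764 times for macrophages (0.712 to 0.819). These ratios share the same pair of libraries, and only 17 T cells and 4 plasma cells were in CDS. In macrophages Ifi27l2a went the other way, at 606 CPM in CDS and 256 CPM in saline.

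**Figure D4:**
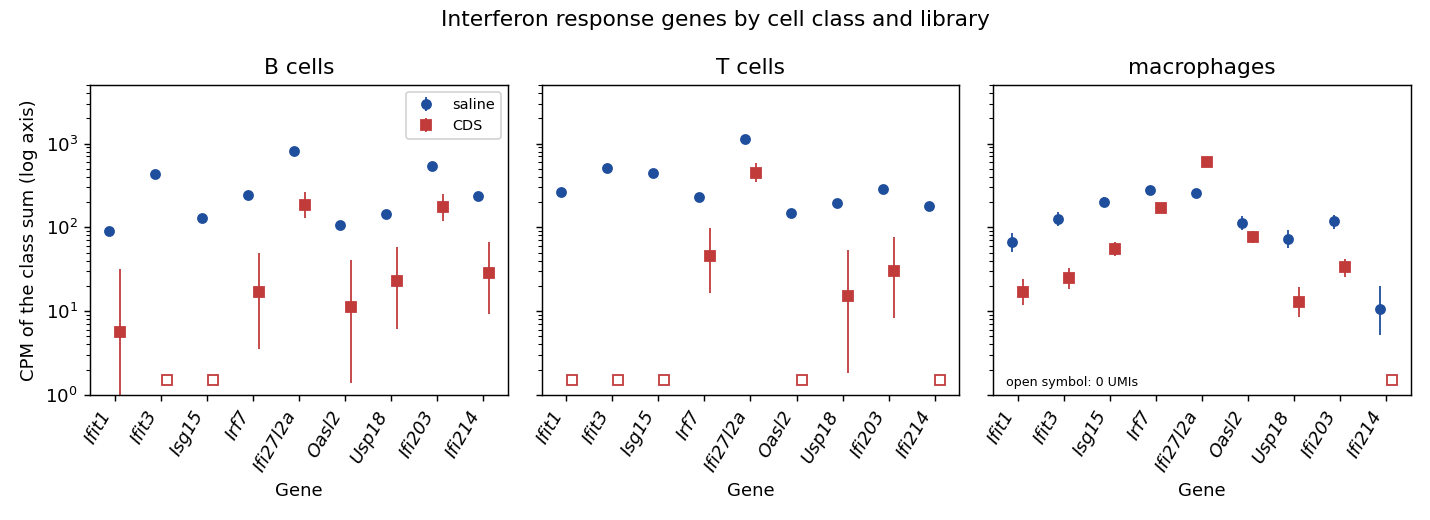
Levels of 9 interferon response genes in B cells, T cells and macrophages of each library, in CPM on a log axis with exact 95% Poisson intervals. In B and T cells every CDS value lies below its saline value, and in macrophages Ifi27l2a lies above.

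Homing genes differed in both directions. Cxcr5 had 348 UMIs in saline and 2 in CDS B cells (ratio 0.098, 0.012 to 0.356), none in CDS cells under 8000 UMIs, and Ccr7 319 and 5 (0.267, 0.086 to 0.629). Cxcr5 and Ccr7 lay below the level limit of this comparison. S1pr1, which guides exit from tissues, was higher, at 99.6 and 368 CPM (3.49, 2.63 to 4.57). It remained 2.71-fold higher without the deep cells and was then found in 18 of 30 CDS cells and in 19.1% of 1060 saline cells. These 2 shares are of cells not thinned to equal depth, and CDS B cells were deeper, with medians of 2720.5 against 1826 UMIs over all B cells. S1pr1 lies at chr3:115710433-115715072 on GRCm38. Vpreb3, known from immature B cells, was 2.77-fold higher (1.80 to 4.12). Of the receptor signal chain, 3 of 9 were lower, Lyn at 0.479 times the saline level, Blk at 0.464 and Pik3ap1 at 0.449. Without the deep cells Lyn stood at 0.479, while Blk was at 0.656 and no longer called. No MHC class II gene of the 6 compared was called, and Cd74 had a ratio of 1.01 (0.914 to 1.11). Outside the rule's markers, Ighm had a ratio of 0.955 and Ebf1 one of 0.884.

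The 10 genes highest in CDS were Id1, Hbegf, Rgcc, Egfl7, Akap12, Sgk1, Pgf, Thbs1, Id3 and Esm1, from 7.04-fold to 44.7-fold. Their UMIs came from 1 to 6 of the 34 cells, and 90.9 to 100% of them from the 4 deep cells. Pecam1, Cdh5 and the other endothelial markers summed to 589 CPM in those 4 cells and 249.6 CPM in the other 30, where all 22 UMIs were of Pecam1. The sum was 253 CPM in saline B cells under 8000 UMIs. The part of those cells' endothelial RNA in the ratios was not tested. Without the deep cells 41 genes were higher and 131 lower, of which 12 and 75 were also called with all cells.

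**Figure D5:**
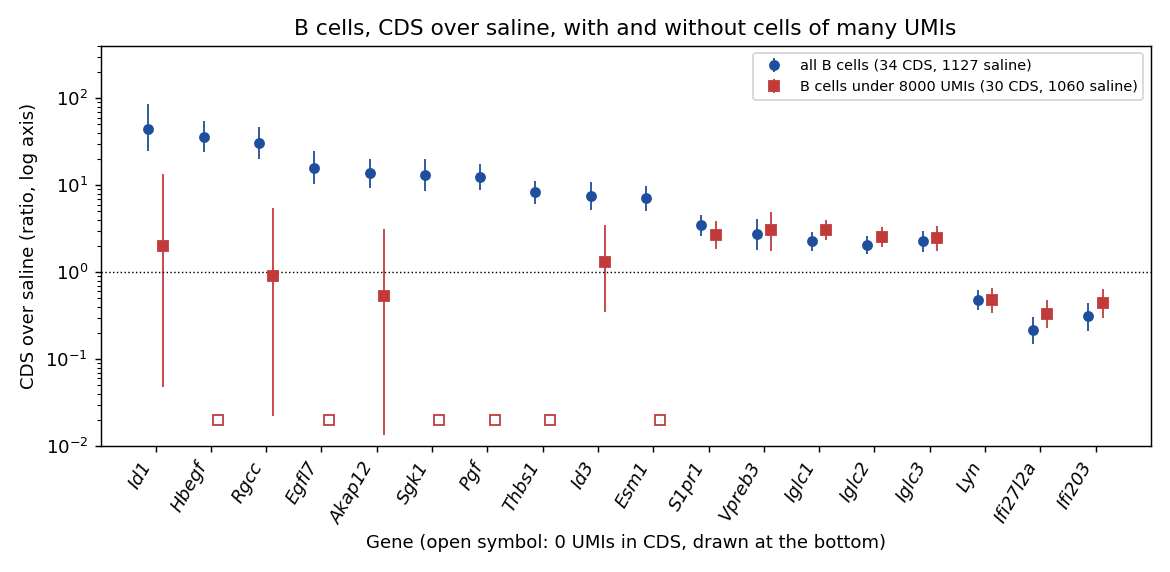
Ratio of CDS to saline B cells for 18 genes on a log axis, with exact 95% intervals, over all B cells and over cells under 8000 UMIs. Without the deep cells the 10 genes at the left have 0 to 4 CDS UMIs and are not called, while S1pr1, Vpreb3 and the Iglc genes stay above 1 and the genes at the right stay below 1.

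Variation among saline B cells beyond counting noise was led by haemoglobin, hormone and acinar genes. Of 3581 genes with a mean of at least 0.05 UMIs in thinned cells, 47 had a variance of 2 or more times the mean, against a median of 1.05. Hbb-bs came first, with 282 UMIs in 1 thinned cell, followed by Hba-a1, Sst, Ppy, Pyy, Gcg, Ctrb1 and Ins2. In cells under 8000 UMIs the ratio for Ppy was 1.47 in place of 32.8 and for Pyy 1.70 in place of 28.9. Apoe, the apolipoprotein, kept its spread at 4.39 in place of 4.53. It had 2110 CPM in B cells, 374 in T cells and 22653 in macrophages, and 68.2% of thinned B cells held a UMI against 6.19% of T cells. Pde7b, a cyclic AMP phosphodiesterase singled out after its values were seen, had a ratio of 3.01 in those cells. It was found in 191 of 382 cells with an Ifit3 UMI and in 277 of 745 without. Igkc had a ratio of 2.48 in those cells.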

How the data were processed

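The deposited matrices hold the authors' raw UMI counts per gene and barcode, 1 matrix per library, made with Cell Ranger 7.1.0 per the file headers. Seurat 4, edgeR and build mm10 also appear in the submitters' processing notes. Whether intron reads were counted is not stated there, and the labels' protocols name both v3.1 and v2 chemistry.

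Each class was picked by UMIs: T cells had at least 3 Cd3 UMIs and at most 1 B marker UMI, macrophages at least 10 C1q UMIs, plasma cells at least 20 Mzb1 and Jchain UMIs, beta cells 25% or more insulin UMIs. UMIs were summed per class as CPM, with TMM factors (edgeR 4.0.16) for CDS over saline. Genes entered at 20 CPM in either class (B against T) or a mean of 100 CPM (CDS over saline), and were called at 2-fold with an exact conditional Poisson 95% interval excluding 1. A count of 0 was bounded by 3 counts. Shares used cells thinned to 1000 UMIs where said. The ratio code was tested on simulated data. Motifs were searched in RefSeq promoters (GRCm38.p6). Work was done in Python 3.11.15 with SciPy 1.17.1, NumPy 2.4.6, Scanpy 1.11.5 (Scrublet at 0.8% per 1000 barcodes), pandas 2.3.3 and matplotlib 3.10.9, and in R 4.3.3 with DESeq2 1.42.0 as an alternative scaling.

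By rule the text names list members at 20 CPM, the 20 highest levels, the 15 highest B over T ratios, the 20 highest variances over mean, the 10 highest and 10 lowest called CDS ratios, and lower members to say that they are near 0. Other genes were chosen after their values were seen. Members and lists were chosen with earlier results of these data known. Alternatives covered barcode filters, marker and insulin limits, doublets, scaling, level limits and, added after seeing the data, B cells under 8000 UMIs. Some list members are not reported here.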

Additional observations from a re-analysis of the deposited data

How the results depend on the processing

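Of the summary values, 77 of the comparisons with an alternative stayed within the interval or within 1.5 times of the main count, and 23 moved. The saline share of B cells, 9.72%, was 4.36% under a stricter barcode filter (1000 genes, 2000 UMIs, 10% mitochondrial), 6.38% with 8 marker UMIs, 5.27% with insulin under 5% and 9.15% without cells of 8000 UMIs or more, an alternative chosen after seeing the data. The CDS share lay between 0.436 and 0.530% under all of these and with doublets left out or a looser filter. Kappa cells were 52.9% (stricter) and 54.8% (insulin under 5%), and mixed cells 44.9% and 43.8%. Switched cells were 1.42% (stricter) and 0.177% (at least 10 switched UMIs). Ighm with Ighd was 72.8% (stricter) and 74.8% (8 marker UMIs). Cells with 3 interferon UMIs were 46.6% (stricter), 54.8% (insulin under 5%) and 66.4% (of 2000 UMIs). Genes with variance of 2 or more times the mean numbered 76 (stricter), 28 (Scrublet doublets out), 28 (under 8000 UMIs) and 211 (thinned to 2000 UMIs). Genes higher and lower in B than T cells numbered 293 and 364 at 50 CPM, where fewer genes are compared. Without a filter on low levels 446 genes were higher and 511 lower in CDS, where more genes are compared. For the other moves the cause was not tested. For single genes, 164 comparisons stayed the same, 21 moved and 4 reversed: the log2 ratio of Rgcc was -0.70 with 8 marker UMIs and -0.16 under 8000 UMIs, that of Akap12 -0.89 under 8000 UMIs and that of Esm1 -1.58 with 8 marker UMIs. No paired analysis was possible because each group has 1 library. Depth limits the CDS side, where 34 cells hold 176414 UMIs.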
